A study of Mus musculus with 8 samples.

Results

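The endoplasmic reticulum stress response genes described here are *Hspa5*, *Hsp90b1*, *Pdia4*, *Xbp1*, *Ddit3*, *Atf4*, *Atf3*, *Herpud1*, *Creb3l3* and *Asns*. They were taken by symbol from the deposited liver count table, so they are 10 of its 24940 genes, and all 10 passed the expression filter that left 12340 genes for testing. Polyadenylated RNA was sequenced from livers of 4 FxrKO and 4 Bcl6LKOFxrKO male mice of the C57BL/6 strain. Both genotypes carried floxed alleles of *Bcl6*, given as Bcl6(fl/fl), and no functional *Fxr* anywhere in the body, given as FXR(homo), and the Bcl6LKOFxrKO mice also carried Alb-Cre. The albumin promoter drives this Cre in hepatocytes, and whether *Bcl6* stays intact in the other cells of the liver was not tested here. Effects of Cre, of the lost *Bcl6* and of any liver disease that follows cannot be told apart. Age was not given in the sources used here, and neither was the feeding state of these particular mice. The question was how the genes of this response differed when hepatocyte *Bcl6* was deleted in a mouse that already lacked *Fxr*.

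Secreted and membrane proteins fold in the endoplasmic reticulum with the help of lumenal chaperones, and hepatocytes carry much of this work because they make most plasma proteins. When unfolded proteins build up, the sensors IRE1, PERK and ATF6 start the unfolded protein response: IRE1 splices *Xbp1* mRNA, ATF6 is cut to release a transcription factor, and PERK phosphorylates the initiation factor eIF2, which slows translation in general and favours that of ATF4. XBP1 and ATF6 raise chaperones and genes that clear misfolded proteins, while ATF4 raises *Ddit3*, *Atf3* and *Asns*, and can also be raised by amino acid shortage without any stress in this organelle.

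Some of these genes carry short elements through which the response acts on their promoters, and these are shown because the genes that share an element did not all behave alike in these livers. RefSeq promoter sequences (GRCm38.p6, the same assembly as the mm10 build of the counts) were found for 10 of 10 genes, with 11 starts in all because *Creb3l3* has another start. Each was searched on both strands for the stress response element (CCAAT and CCACG with 9 bases between), its second form (ATTGG and CCACG with 1 base between), the core TGACGTG bound by ATF6 and XBP1, and TGATGNAA, the composite element of ATF4 and C/EBP proteins. The 250 bases before the start are given for the genes with a match, on the strand of the gene, with matches in capitals. They lie at chr2:34771840-34772089 (plus strand) for *Hspa5*, chr10:86705445-86705694 (minus) for *Hsp90b1*, chr8:94386179-94386428 (plus) for *Herpud1*, chr1:191183334-191183583 (minus) for *Atf3* and chr6:7693210-7693459 (minus) for *Asns*.
Hspa5: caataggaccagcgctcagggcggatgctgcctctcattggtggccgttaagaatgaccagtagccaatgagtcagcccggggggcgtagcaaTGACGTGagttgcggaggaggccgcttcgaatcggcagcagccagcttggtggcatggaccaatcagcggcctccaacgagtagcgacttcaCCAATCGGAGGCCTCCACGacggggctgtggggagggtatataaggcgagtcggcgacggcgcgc
Hsp90b1: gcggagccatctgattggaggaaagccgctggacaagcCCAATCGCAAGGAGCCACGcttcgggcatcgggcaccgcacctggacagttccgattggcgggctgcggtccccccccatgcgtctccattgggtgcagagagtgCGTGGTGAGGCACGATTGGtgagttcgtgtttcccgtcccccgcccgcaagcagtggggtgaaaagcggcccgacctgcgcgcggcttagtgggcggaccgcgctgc
Herpud1: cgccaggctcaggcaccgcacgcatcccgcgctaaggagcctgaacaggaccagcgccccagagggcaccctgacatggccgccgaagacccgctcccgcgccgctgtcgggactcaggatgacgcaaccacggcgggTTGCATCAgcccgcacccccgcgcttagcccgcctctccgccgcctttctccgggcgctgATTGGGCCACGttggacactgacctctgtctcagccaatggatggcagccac
Atf3: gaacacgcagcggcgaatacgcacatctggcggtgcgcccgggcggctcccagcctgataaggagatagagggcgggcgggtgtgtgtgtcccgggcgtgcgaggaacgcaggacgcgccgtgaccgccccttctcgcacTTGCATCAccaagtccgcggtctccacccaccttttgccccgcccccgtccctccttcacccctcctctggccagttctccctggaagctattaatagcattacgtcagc
Asns: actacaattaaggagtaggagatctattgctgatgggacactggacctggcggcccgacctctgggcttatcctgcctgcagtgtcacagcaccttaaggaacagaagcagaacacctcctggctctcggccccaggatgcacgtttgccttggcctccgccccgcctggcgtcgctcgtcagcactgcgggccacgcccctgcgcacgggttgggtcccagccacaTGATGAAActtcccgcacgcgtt

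The *Hspa5* promoter held a stress response element from 65 to 47 bases before the start and the core TGACGTG from 157 to 151. *Hsp90b1* held 2 stress response elements, from 212 to 194 bases before the start on the strand of the gene and from 107 to 89 on the other strand. *Herpud1* held the second form from 52 to 42 bases before the start and, on the other strand, the composite element from 112 to 105. The composite element was also present in *Atf3*, from 110 to 103 on the other strand, and in *Asns*, from 23 to 16. For *Asns* these positions are from the RefSeq promoter start, which lies before the start of the counted transcript (chr6:7693182). No 2 of these matches overlapped. Of 32851 promoters of 250 bases before to 50 after a start, 0.119% held the stress response element, 0.0365% its second form, 2.01% the core and 3.97% the composite element. None of the 4 was found in this window of *Pdia4*, *Xbp1*, *Ddit3*, *Atf4* or *Creb3l3*, which says only that these letters were not there.

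Each liver gave between 7586241 and 11839503 counts on genes, and a floor of 3 counts was between 0.253 and 0.395 CPM by these totals, for counting error alone. CPM are counts scaled to a common library size, with TMM factors for all values of genes. The labels do not say which livers came from which litter or day, and p-values measure the spread between these livers. Each sample title carries a number of its own, and these numbers adjoin for FxrKO liver 1 and Bcl6LKOFxrKO liver 2 and run on over a further 5 livers, FxrKO livers 2 to 4 and Bcl6LKOFxrKO livers 3 and 4, while Bcl6LKOFxrKO liver 1 stands alone. What the numbers mark is not stated. *Bcl6*, the deleted gene, lay between 21.2 and 65.2 CPM in FxrKO livers and between 4.61 and 11.9 in Bcl6LKOFxrKO livers, in the direction of the labels in all 8 livers (log2 fold change -2.72, standard error 0.40, adjusted p = 0.00123 by edgeR). *Nr1h4*, the gene of FXR, was still counted at 56.7 to 62.6 and 39.4 to 48.1 CPM, and counts over the whole gene do not check its deletion, which all 8 livers share. Hepatocyte markers were high in every liver, with summed levels of 88280 to 100800 CPM in FxrKO and 175700 to 208200 CPM in Bcl6LKOFxrKO livers, and 3 of 13 tested were called higher and 3 lower. Their median log2 fold change was -0.20, with 9 of 13 below 0. *Alb* alone took 4.04% to 5.16% of the counts in FxrKO and 11.9% to 13.2% in Bcl6LKOFxrKO livers. Markers of other cells were also higher in sum in Bcl6LKOFxrKO livers: 551 to 763 against 845 to 1373 CPM for macrophages (8 of 17 tested markers called higher), 335 to 452 against 663 to 744 for stellate cells and fibroblasts (11 of 14) and 60.1 to 88.0 against 112 to 219 for cholangiocytes (4 of 8 tested, with *Cftr* at or under 3 counts in every liver). Sums of endothelial (287 to 379 against 369 to 485 CPM, 2 of 13 called higher) and neutrophil markers (26.3 to 422 against 143 to 841 CPM, 2 of 4 tested, with *Ly6g* at or under 3 counts in every liver) overlapped. In bulk liver, fewer cells of a type and less RNA per cell cannot be told apart, and the part these shifts have in the results below was not tested.

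A gene was called when its adjusted p was under 0.05 in the quasi-likelihood test of edgeR, adjusted by Benjamini and Hochberg's method over the 12340 tested genes. This is the adjusted p given throughout, and every difference is Bcl6LKOFxrKO minus FxrKO. Of the 10 genes, 3 were called, against 29.7% of all tested genes. *Ddit3* and *Atf3* were higher in Bcl6LKOFxrKO livers (2 of 10, against 16.2% of tested genes called higher), *Herpud1* was lower (1 of 10, against 13.5% called lower) and the other 7 were not called. The livers of the 2 genotypes did not overlap for 1 of 10 genes, *Herpud1*, against 31.3% of tested genes. The share called was that of tested genes in general, and the median log2 fold change was -0.02 over the 10 genes and 0.01 over all tested genes, so the differences are described gene by gene. With total counts in place of TMM factors, the calls among all genes went from 1994 higher and 1665 lower to 1404 higher and 2949 lower, and the median of all log2 fold changes shifted by -0.16. The plots of CPM by liver and of the fold changes show the 10 genes.

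**Figure D1:**
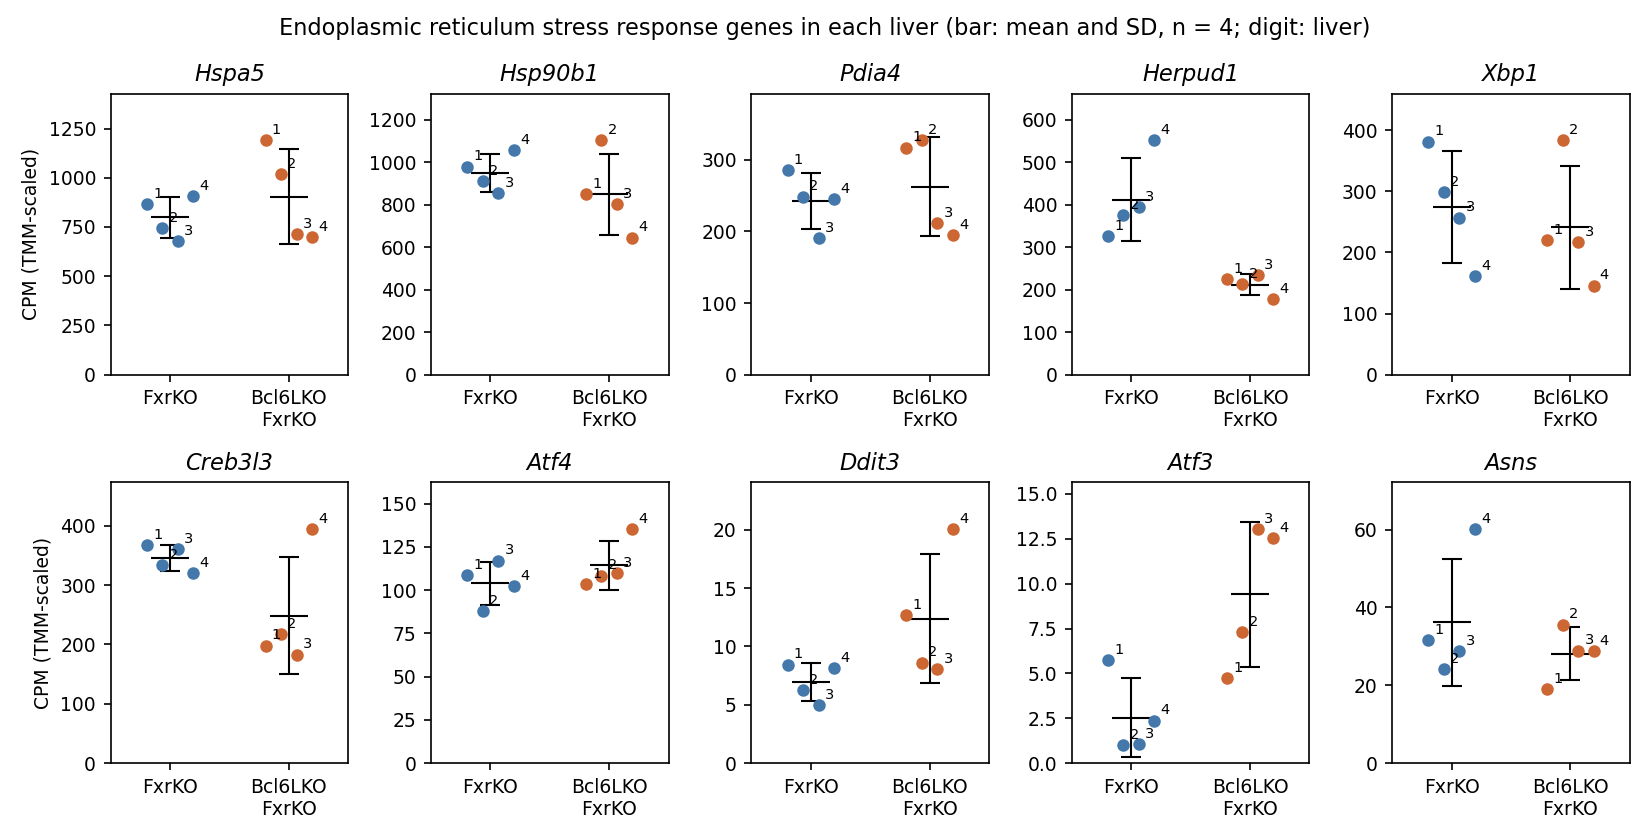
CPM of the 10 genes in each liver (y axis, from 0, TMM-scaled) by genotype (x axis), with digits for the liver and bars for the mean and SD of 4 livers. Only *Herpud1* has livers of the 2 genotypes that do not overlap, at 325 CPM or more against 234 CPM or less, and *Creb3l3* would have but for Bcl6LKOFxrKO liver 4.

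**Figure D2:**
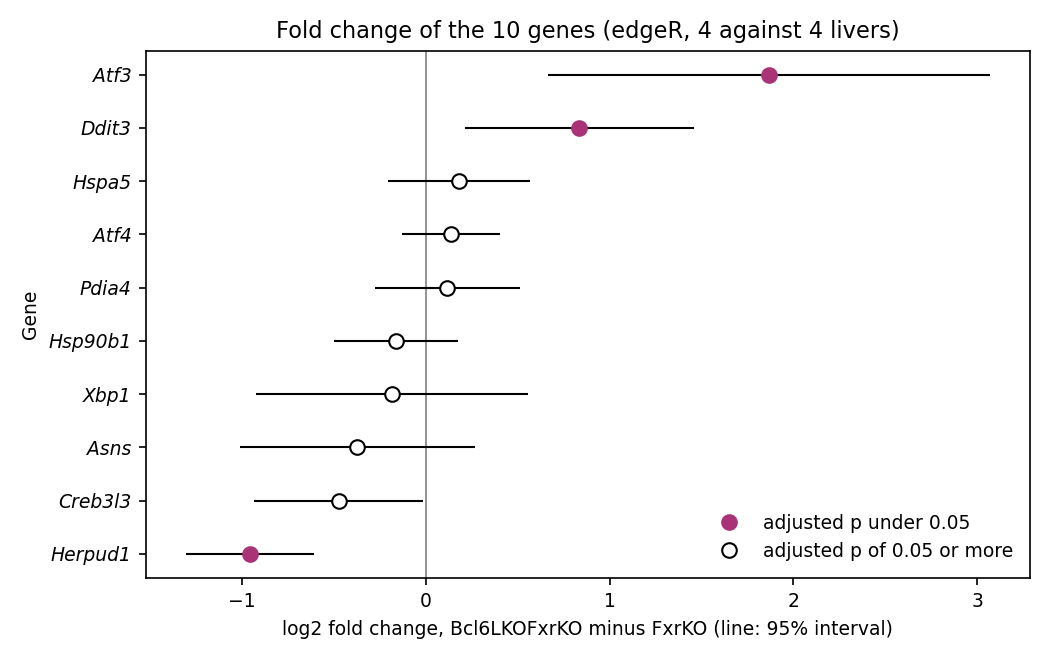
Log2 fold change of each gene, Bcl6LKOFxrKO minus FxrKO (x axis), with its 95% interval as a line, ordered by size (y axis). The called genes, drawn filled, are *Atf3* at 1.87 and *Ddit3* at 0.83 at the top and *Herpud1* at -0.96 at the bottom.

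*Herpud1* fell, with the smallest adjusted p of the 10 genes. It encodes a membrane protein of the endoplasmic reticulum that helps to send misfolded proteins to the proteasome (mm10 chr8:94386429-94395371, plus strand). It lay at 325, 376, 394 and 551 CPM in FxrKO livers 1 to 4 and at 224, 212, 234 and 177 CPM in Bcl6LKOFxrKO livers 1 to 4. Every Bcl6LKOFxrKO liver was below every FxrKO liver, and the mean went from 412 ± 97.6 to 212 ± 24.6 CPM (SD, n = 4 each). The log2 fold change was -0.96 (standard error 0.16, 95% interval -1.31 to -0.61, adjusted p = 0.000688 by edgeR), at percentile 4.04 of all tested genes. It was called in 15 of 15 other settings, including without any single liver, and in both fits by runs of title numbers.

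Other genes that dispose of misfolded proteins were called in both directions. Of 29 tested genes of this pathway other than *Herpud1*, 1 was called higher and 4 lower, or 17.2% against 29.7% of all tested genes (median log2 fold change -0.07). *Edem2*, which trims the sugars of misfolded glycoproteins, rose from 64.0 ± 6.56 to 110 ± 12.2 CPM (SD, n = 4 each, log2 fold change 0.79, adjusted p = 0.000315 by edgeR). Its relative *Edem3* fell from 24.5 ± 2.19 to 14.2 ± 3.79 CPM (log2 fold change -0.80, adjusted p = 0.00645), and *Ube2g1*, a ubiquitin-conjugating enzyme, from 38.9 ± 1.33 to 25.3 ± 4.65 CPM (log2 fold change -0.63, adjusted p = 0.00463). Relatives of one enzyme family thus lay on opposite sides. Without Bcl6LKOFxrKO liver 4, 3 of these genes were called higher and 2 lower, and with total counts alone 8 were called lower. *Edem1* was at 130 to 152 CPM in FxrKO and 112 to 170 CPM in Bcl6LKOFxrKO livers and was not called. *Derl3* was singled out after its values were seen because its promoter holds the stress response element, as do those of *Hspa5* and *Hsp90b1*, which were not called. It was called lower, at 2.15 to 4.995 against 0.390 to 2.43 CPM, the lowest value being near the floor (log2 fold change -1.62, adjusted p = 0.0154).

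The lumenal chaperones among the 10 genes were abundant and not called. *Hspa5* encodes BiP, the main Hsp70 of the endoplasmic reticulum and the usual readout of the response (chr2:34772090-34776529, plus strand). It lay at 865, 746, 677 and 906 CPM in FxrKO livers and at 1190, 1018, 712 and 698 CPM in Bcl6LKOFxrKO livers. Bcl6LKOFxrKO livers 1 and 2 were above all FxrKO livers, and livers 3 and 4 were within the FxrKO range. The log2 fold change was 0.18 (standard error 0.18, 95% interval -0.21 to 0.56, adjusted p = 0.477 by edgeR). It was -0.029 with the runs of title numbers as a block and -0.16 in the run of 5 livers alone, not called in either (adjusted p = 0.911 and 0.571). Bcl6LKOFxrKO liver 1, the highest for *Hspa5*, is alone in its run and adds nothing to either fit. Simply leaving that liver out gave 0.019.

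*Hsp90b1* encodes GRP94, the Hsp90 of the organelle (chr10:86690841-86705444, minus strand). It was at 979, 909, 852 and 1057 CPM in FxrKO livers and at 848, 1102, 800 and 645 CPM in Bcl6LKOFxrKO livers. Bcl6LKOFxrKO liver 2 was the highest of all 8 and liver 4 the lowest, so the genotypes overlapped (log2 fold change -0.16, standard error 0.16, 95% interval -0.50 to 0.18, adjusted p = 0.465 by edgeR). Exons of *Hsp90b1* share 415 bases with *1810014B01Rik* on the other strand and 84 and 133 bases with *Gm15344* and *Gm25745* on its own. The counting is not stated to use strand, so reads from these bases cannot be assigned to a gene. *Pdia4*, a protein disulfide isomerase (chr6:47796141-47813512, minus strand), was at 286, 249, 190 and 245 CPM against 317, 327, 212 and 195 CPM. Bcl6LKOFxrKO livers 1 and 2 again lay above all FxrKO livers and the other two within their range (log2 fold change 0.12, standard error 0.18, 95% interval -0.28 to 0.51, adjusted p = 0.669), and its exons share 14 bases with *Mir704*. The direction of *Pdia4* was not fixed: it was -0.047 with total counts alone, -0.016 without Bcl6LKOFxrKO liver 2 and -0.059 with the runs of title numbers as a block.

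Among 33 other chaperones and folding enzymes of the organelle, 5 were called higher and 2 lower, or 21.2% against 29.7% of all tested genes (median log2 fold change 0.07). The genes called higher included *Prdx4*, a peroxidase that feeds disulfide formation (68.8 ± 6.51 to 101 ± 8.88 CPM, SD, n = 4 each, log2 fold change 0.55, adjusted p = 0.00242 by edgeR), *Fkbp11*, a prolyl isomerase (14.3 ± 2.11 to 24.9 ± 5.26 CPM, log2 fold change 0.79, adjusted p = 0.00341), and *Sil1*, the nucleotide exchange factor of BiP (53.9 ± 4.51 to 80.5 ± 16.9 CPM, log2 fold change 0.58, adjusted p = 0.0078). The genes called lower were *Ero1lb*, an oxidase of the folding pathway (33.8 ± 2.92 to 21.8 ± 5.73 CPM, log2 fold change -0.63, adjusted p = 0.0188), and *Dnajb9*, a co-chaperone of BiP raised by XBP1 (46.8 ± 6.01 to 30.7 ± 10.4 CPM, log2 fold change -0.61, adjusted p = 0.0422). *Dnajb9* was not called in 6 of the 8 fits that leave out a liver (adjusted p from 0.0769 without Bcl6LKOFxrKO liver 4 to 0.0907 without Bcl6LKOFxrKO liver 2, with the others being Bcl6LKOFxrKO liver 3 and FxrKO livers 1, 3 and 4), nor by limma voom (adjusted p = 0.0919). With total counts alone 3 genes of this list were called higher and 4 lower. The abundant chaperones *Calr* and *Canx* and the BiP partners *Hyou1*, *Sdf2l1* and *Dnajc3* were not called, with log2 fold changes from -0.21 for *Hyou1* to 0.15 for *Calr*.

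*Xbp1*, the target of IRE1 and a factor that hepatocytes use also for secretion and lipid synthesis, varied widely within each genotype (chr11:5520641-5525993, plus strand). It was at 382, 299, 257 and 161 CPM in FxrKO livers and at 220, 383, 217 and 146 CPM in Bcl6LKOFxrKO livers. The ranges of the 2 genotypes nearly coincided, and livers with high and low values were found in each. The highest of each genotype, FxrKO liver 1 and Bcl6LKOFxrKO liver 2, have adjoining title numbers and also the highest sums of neutrophil markers, 422 and 841 CPM against 26.3 to 244 CPM in the other 6 livers. Only 4 of the 11 neutrophil markers passed the expression filter, so these sums alone do not show more neutrophils, and their part in *Xbp1* was not tested. The log2 fold change of -0.19 (standard error 0.33, 95% interval -0.93 to 0.55, adjusted p = 0.706 by edgeR) leaves room for a change of over 0.5 in either direction, and it was 0.012 without FxrKO liver 1 and -0.28 with the runs of title numbers as a block (standard error 0.219, adjusted p = 0.388). Counts per gene do not tell the spliced mRNA, which encodes the active factor, from the unspliced one.

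*Creb3l3* encodes CREBH, a transcription factor of the liver that is held in the endoplasmic reticulum, is cut like ATF6, and acts on lipid genes (chr10:81084333-81098872, minus strand). It was at 367, 334, 361 and 320 CPM in FxrKO livers, the tightest of the 10 genes there, and at 198, 218, 183 and 395 CPM in Bcl6LKOFxrKO livers. Bcl6LKOFxrKO livers 1 to 3 were below all FxrKO livers, and liver 4 was above all of them. With all 8 livers it was not called (log2 fold change -0.48, standard error 0.21, 95% interval -0.94 to -0.02, adjusted p = 0.111 by edgeR). Without Bcl6LKOFxrKO liver 4 the log2 fold change was -0.79 with an adjusted p of 0.000202, and it was also called with total counts alone (-0.64, adjusted p = 0.0274) and by limma voom with quality weights (-0.72, adjusted p = 0.00159).

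The genes that CREBH is known to act on were called in both directions. Of 16 tested, 5 were called higher and 6 lower, or 68.8% against 29.7% of all tested genes (median log2 fold change -0.30). *Apoc2*, the activator of lipoprotein lipase, rose from 115 ± 8.54 to 618 ± 154 CPM (SD, n = 4 each, log2 fold change 2.42, adjusted p = 3.16e-07 by edgeR), and *Apoa4*, an apolipoprotein of lipid-rich particles, from 362 ± 55.5 to 1348 ± 536 CPM (log2 fold change 1.90, adjusted p = 0.000108). *Apoa5*, which also promotes the breakdown of triglyceride, fell from 917 ± 144 to 511 ± 62.1 CPM (log2 fold change -0.84, adjusted p = 0.000729), and *Bdh1*, an enzyme of ketone bodies, from 285 ± 27.1 to 162 ± 30.2 CPM (log2 fold change -0.82, adjusted p = 0.000729). Bcl6LKOFxrKO liver 4, the liver with high *Creb3l3*, was the highest of its genotype in 7 of the 16 genes, among them *Apoc2* at 838 CPM, *Apoa4* at 2135 CPM and *Bdh1* at 206 CPM. It was the lowest of its genotype in 3 of the 16. Over all tested genes it was the highest of its genotype in 32.7% and the lowest in 34.1%. Whether the levels of these genes go with *Creb3l3* was not tested.

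*Atf4*, the factor whose translation PERK favours, was not called at the level of its mRNA (chr15:80255184-80257545, plus strand). It was at 109, 88.0, 117 and 102 CPM in FxrKO livers and at 104, 108, 110 and 135 CPM in Bcl6LKOFxrKO livers. The ranges overlapped, and the interval is among the narrowest of the 10 genes (log2 fold change 0.14, standard error 0.12, 95% interval -0.13 to 0.40, adjusted p = 0.431 by edgeR, and -0.024 with total counts alone). Since ATF4 is controlled largely in translation, its mRNA does not report its activity.

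*Ddit3* encodes CHOP, a factor that ATF4 raises and that can drive cell death in lasting stress (chr10:127290793-127296288, plus strand). It was called higher from low levels, at 8.43, 6.25, 4.94 and 8.14 CPM in FxrKO livers, or 46 to 86 counts, against 12.7, 8.62, 8.08 and 20.1 CPM in Bcl6LKOFxrKO livers, or 71 to 221 counts. Bcl6LKOFxrKO livers 1, 2 and 4 were above all FxrKO livers and liver 3 was among them. The log2 fold change was 0.83 (standard error 0.29, 95% interval 0.21 to 1.46, adjusted p = 0.0451 by edgeR), close to the threshold. Without Bcl6LKOFxrKO liver 4 it was 0.49 with an adjusted p of 0.122, and it was called in 7 of 15 other settings and in 3 of the 8 that leave out a liver, those without Bcl6LKOFxrKO liver 2 or 3 or FxrKO liver 1. With the runs of title numbers as a block the adjusted p was 0.0995, and in the run of 5 livers alone 0.051. Its exons share 68 bases with *Mars* on the other strand, and reads there cannot be assigned.

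*Atf3*, a transcription factor that many kinds of stress raise within minutes to hours, had the largest log2 fold change of the 10 genes (chr1:191170297-191183333, minus strand). It was at 5.72, 0.9997, 1.07 and 2.37 CPM in FxrKO livers, or 8 to 55 counts, against 4.73, 7.28, 13.1 and 12.5 CPM in Bcl6LKOFxrKO livers, or 47 to 138 counts. FxrKO liver 1 was above Bcl6LKOFxrKO liver 1, and otherwise the genotypes were apart. The mean went from 2.54 ± 2.21 to 9.40 ± 4.06 CPM (SD, n = 4 each), a log2 fold change of 1.87 (standard error 0.53, 95% interval 0.67 to 3.07, adjusted p = 0.0274 by edgeR). Without FxrKO liver 1 it was 2.62 with an adjusted p of 0.00102, while it was not called without any of 5 other livers (adjusted p from 0.0572 without FxrKO liver 2 to 0.0857 without Bcl6LKOFxrKO liver 4), and it was called in 8 of 14 other settings. With the runs of title numbers as a block the adjusted p was 0.0136, and in the run of 5 livers alone the log2 fold change was 3.05 with an adjusted p of 0.000114.

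Genes of the immediate early response, which many signals raise within a short time, were higher in sum beside *Atf3*. Of 22 tested, 9 were called higher and none lower by edgeR (0 at an unadjusted p under 0.05, and 0 by DESeq2 and by limma voom, median log2 fold change 0.85), and their summed level was 261 to 432 CPM in FxrKO and 541 to 868 CPM in Bcl6LKOFxrKO livers. The share called higher was 40.9%, against 16.2% of all tested genes. *Rhob*, a small GTPase, rose from 28.1 ± 4.51 to 70.1 ± 13.5 CPM (SD, n = 4 each, log2 fold change 1.32, adjusted p = 4.74e-05 by edgeR) and *Klf6*, a zinc finger factor, from 9.03 ± 2.31 to 37.4 ± 14.2 CPM (log2 fold change 2.05, adjusted p = 0.000179). Bcl6LKOFxrKO liver 3 was the highest of its genotype in 15 of the 22 genes (68.2%, against 24.2% of all tested genes) and FxrKO liver 1 in 11 (against 26.5%), and these are the livers in which *Atf3* was highest in each genotype. The part of these genes, and of the macrophage markers given above, in the levels of *Atf3* was not tested.

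*Asns*, asparagine synthetase and a standard target of ATF4, was not called (chr6:7675171-7693182, minus strand). It was at 31.6, 24.2, 28.7 and 60.2 CPM in FxrKO livers and at 19.0, 35.6, 28.9 and 28.7 CPM in Bcl6LKOFxrKO livers. FxrKO liver 4 was the highest of all 8 and the ranges overlapped (log2 fold change -0.37, standard error 0.29, 95% interval -1.02 to 0.27, adjusted p = 0.36 by edgeR). The composite element is thus in the promoters of *Atf3*, called higher, *Herpud1*, called lower, and *Asns*, not called.

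The wider set of ATF4 and CHOP targets was also called in both directions. Of 25 tested other than the 10 genes, 6 were called higher and 2 lower, or 32.0% against 29.7% of all tested genes (median log2 fold change 0.28). The number called higher was 3 when at least 10 counts were asked of every liver and 10 by limma voom. *Vldlr*, a lipoprotein receptor, rose from 2.06 ± 0.530 to 11.7 ± 3.42 CPM (SD, n = 4 each, log2 fold change 2.48, adjusted p = 1.50e-05 by edgeR), and *Bcl2l11*, which encodes the death protein BIM, from 4.73 ± 0.153 to 18.2 ± 5.88 CPM (log2 fold change 1.94, adjusted p = 2.26e-05). *Gpt2*, an alanine transaminase, fell from 749 ± 118 to 407 ± 44.7 CPM (log2 fold change -0.88, adjusted p = 0.000477) and *Cebpb*, a partner of ATF4 and CHOP, from 56.0 ± 6.998 to 36.5 ± 4.80 CPM (log2 fold change -0.62, adjusted p = 0.00328). The genes called higher also included *Nupr1*, *Tnfrsf10b* and *Sqstm1*. Some classical targets were not called: the log2 fold changes were -0.24 for *Trib3* (adjusted p = 0.494), -0.66 for *Chac1* (adjusted p = 0.212) and 0.23 for *Ppp1r15a*, which reverses the phosphorylation by PERK (adjusted p = 0.246). These 3 were singled out after their values were seen, as was *Fgf21*, a hormone of the liver that many stresses raise, which had 10 counts in FxrKO livers together (7, 1, 0 and 2) and 36, 17, 16 and 19 counts in Bcl6LKOFxrKO livers (log2 fold change 3.01, adjusted p = 0.00192).

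Genes of amino acid transport, synthesis and tRNA charging, many of them ATF4 targets, were called higher in 9 of 26 and lower in 1 (median log2 fold change 0.33). The share called was 38.5%, against 29.7% of all tested genes. The number called lower was 4 by total counts alone and 2 without Bcl6LKOFxrKO liver 3. *Slc6a9*, a glycine transporter, rose from 58.1 ± 8.65 to 187 ± 21.1 CPM (SD, n = 4 each, log2 fold change 1.69, adjusted p = 1.24e-06 by edgeR) and *Cars*, the cysteinyl-tRNA synthetase, from 29.1 ± 4.24 to 84.2 ± 15.4 CPM (log2 fold change 1.53, adjusted p = 9.32e-06). *Cth*, which makes cysteine, fell from 352 ± 45.9 to 184 ± 36.4 CPM (log2 fold change -0.94, adjusted p = 0.000574). The charging enzymes *Gars*, *Wars* and *Tars* and the transporters *Slc7a1*, *Slc3a2* and *Slc1a5* were also called higher, beside *Asns*, *Trib3* and *Chac1*, which were not.

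The sensors upstream of these genes differed in 3 of 19 tested, 2 called higher and 1 lower, or 15.8% against 29.7% of all tested genes (median log2 fold change 0.10). *Eif2ak3*, which encodes PERK, rose from 17.996 ± 1.43 to 36.5 ± 10.1 CPM (SD, n = 4 each, log2 fold change 1.02, adjusted p = 0.00112 by edgeR), with no overlap between livers. *Creb3l2*, a relative of *Creb3l3* that acts on the secretory pathway, rose from 6.52 ± 1.80 to 23.7 ± 2.78 CPM (log2 fold change 1.87, adjusted p = 9.32e-06), and *Eif2b1*, a subunit of the exchange factor that phosphorylated eIF2 inhibits, fell from 25.5 ± 1.001 to 19.5 ± 0.584 CPM (log2 fold change -0.38, adjusted p = 0.0177). The number of sensors called lower was 3 without Bcl6LKOFxrKO liver 4, 2 by DESeq2, 3 by limma voom and 5 with total counts alone. *Ern1*, which encodes IRE1, and *Atf6* were not called, with log2 fold changes of -0.02 (adjusted p = 0.958) and 0.28 (adjusted p = 0.088).

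Of 51 tested genes of translocation, glycosylation and vesicle traffic, 2 were called higher and 3 lower, or 9.8% against 29.7% of all tested genes (median log2 fold change 0.04). *Sec11c*, a subunit of signal peptidase, rose (18.5 ± 1.31 to 30.6 ± 5.22 CPM, SD, n = 4 each, log2 fold change 0.72, adjusted p = 0.00165 by edgeR), as did *Rpn2*, a subunit of oligosaccharyl transferase (log2 fold change 0.33, adjusted p = 0.0353, 0.232 with total counts alone, and from 0.0545 to 0.104 with 1 of 6 of the livers left out). *Sar1b*, a GTPase of COPII vesicles, fell (log2 fold change -0.40, adjusted p = 0.00987), as did *Tram1*, which helps chains into the translocon (log2 fold change -0.47, adjusted p = 0.0159). The number called higher in this list was 4 without Bcl6LKOFxrKO liver 3 or 4, 1 without any of 4 other livers, 1 with no filter or with total counts alone, and 5 by limma voom. The number called lower was 15 with total counts alone, 7 by DESeq2, and 5 both by limma voom and when the 50 most counted genes were left out of the normalization. Genes of cell death linked to the response were called higher in 3 of 19 and lower in 3, or 31.6% against 29.7% of all tested genes (median log2 fold change 0.05). Those higher included *Bcl2l1*, which encodes the protective BCL-XL (log2 fold change 0.72, adjusted p = 0.0018), and *Bax*, which encodes its opponent (0.76, adjusted p = 0.0166, and 0.0506 and 0.0507 without FxrKO liver 2 or 3), and those lower included the calcium channels *Itpr2* (-0.56, adjusted p = 0.00728) and *Itpr1* (-0.67, adjusted p = 0.0214, and 0.0589 and 0.0502 without FxrKO liver 2 or 4). Without FxrKO liver 2 or 3, 1 of the death genes was called higher, and the number called lower was 1 without FxrKO liver 2 and 5 with total counts alone.

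Chaperones of the cytosol and mitochondria were called in 1 direction. Of 22 tested, 6 were called lower, or 27.3%, against 13.5% of all tested genes called lower and 29.7% called either way, and none was called higher by edgeR, with 0 at an unadjusted p under 0.05 and 0 by DESeq2 and by limma voom. Their median log2 fold change was -0.31, and 2 of 22 were above 0. *Dnaja1*, a co-chaperone of the cytosolic Hsp70 proteins, fell from 62.7 ± 4.24 to 34.0 ± 2.47 CPM (SD, n = 4 each, log2 fold change -0.89, adjusted p = 5.20e-05 by edgeR) and *Hspe1*, a mitochondrial chaperonin subunit, from 67.8 ± 6.73 to 51.0 ± 5.30 CPM (log2 fold change -0.41, adjusted p = 0.0181, and 0.0507 to 0.0565 without Bcl6LKOFxrKO liver 1 or 3 or FxrKO liver 2 or 3). The number called lower was 15 with total counts alone, 10 by limma voom, 3 without FxrKO liver 1 and 1 without FxrKO liver 2. Bcl6LKOFxrKO liver 3 was the lowest of its genotype in 15 of the 22 genes (68.2%, against 23.6% of all tested genes) and FxrKO liver 1 the highest of its own in 13 (59.1%, against 26.5%). The plot of fold changes by list sets these groups beside the 10 genes.

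**Figure D3:**
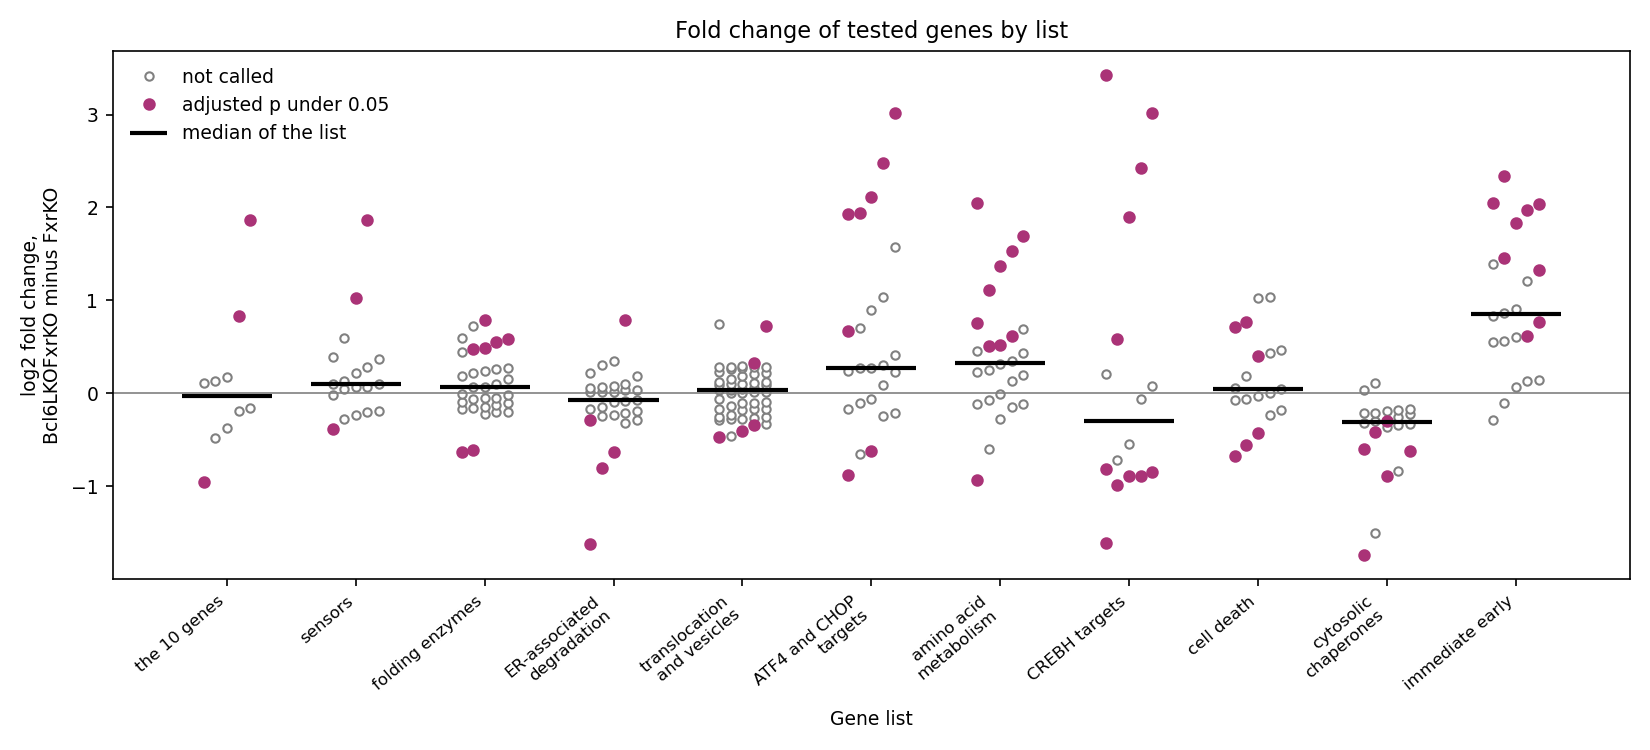
Log2 fold change, Bcl6LKOFxrKO minus FxrKO (y axis), of each tested gene by list (x axis), filled where called, with a bar for the median of the list. Lists of the organelle (sensors, folding enzymes, degradation, translocation) have medians from -0.07 to 0.10, the cytosolic chaperones lie at -0.31 and the immediate early genes at 0.85.

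Tested genes with these promoter elements were also called in both directions for 3 of the 4 elements. Of 18 with the stress response element, 4 were called higher and 3 lower, and of 8 with its second form 2 were called lower, *Herpud1* and *Rcl1*, and none higher by edgeR (1 at an unadjusted p under 0.05, and 1 by DESeq2 and by limma voom). Of 312 with the core TGACGTG, 39 were called higher and 33 lower (23.1% called), and of 268 with the composite element, 44 and 32 (28.4%). The share called was 38.9% for the stress response element and 25.0% for its second form, against 29.7% of all tested genes. Those of the 10 genes that hold an element are among these.

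The livers of one genotype differed among themselves in these genes, and not all in the same ones. The range within a genotype was widest for *Atf3* in FxrKO livers, at 2.52 on the log2 scale, and 1.25 and 1.40 for *Xbp1* in FxrKO and Bcl6LKOFxrKO livers. For *Hspa5* the coefficient of variation was 13.3% in FxrKO and 26.6% in Bcl6LKOFxrKO livers, for *Hsp90b1* 9.29% and 22.4%, and for *Creb3l3* 6.47% and 39.7%, while for *Herpud1* it was 23.7% and 11.6%. Bcl6LKOFxrKO liver 4 was the lowest of its genotype in 5 of the 10 genes (*Hspa5*, *Hsp90b1*, *Pdia4*, *Xbp1* and *Herpud1*) and the highest in 3 (*Ddit3*, *Atf4* and *Creb3l3*). Outside the 10 genes it was the lowest in 16 of 33 folding enzymes, 16 of 29 degradation genes and 24 of 51 translocation genes, against 34.1% of all tested genes. The chaperones and the CHOP gene of this liver thus lay at opposite ends of its genotype. It also had the highest sum of macrophage markers, 1373 CPM against 845 to 900 CPM in the other 3, and the part of those cells was not tested. Other livers also lay at an end of their genotype in many of these genes. Bcl6LKOFxrKO liver 2 was the highest in 4 of the 10 genes and the lowest in none. It was the highest in 15 of 33 folding enzymes, against 24.8% of all tested genes. FxrKO liver 1 was the highest of its genotype in 5 of the 10 genes, 19 of 33 folding enzymes, 15 of 29 degradation genes and 23 of 51 translocation genes, against 26.5% of all tested genes. FxrKO liver 3 was the lowest in 4 of the 10 genes and 19 of 33 folding enzymes, against 24.6% of all tested genes. Bcl6LKOFxrKO liver 3 was the lowest in 14 of 33 folding enzymes, against 23.6% of all tested genes. These orders were read after the values were seen, and the plot of deviations gives them for every liver.

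**Figure D4:**
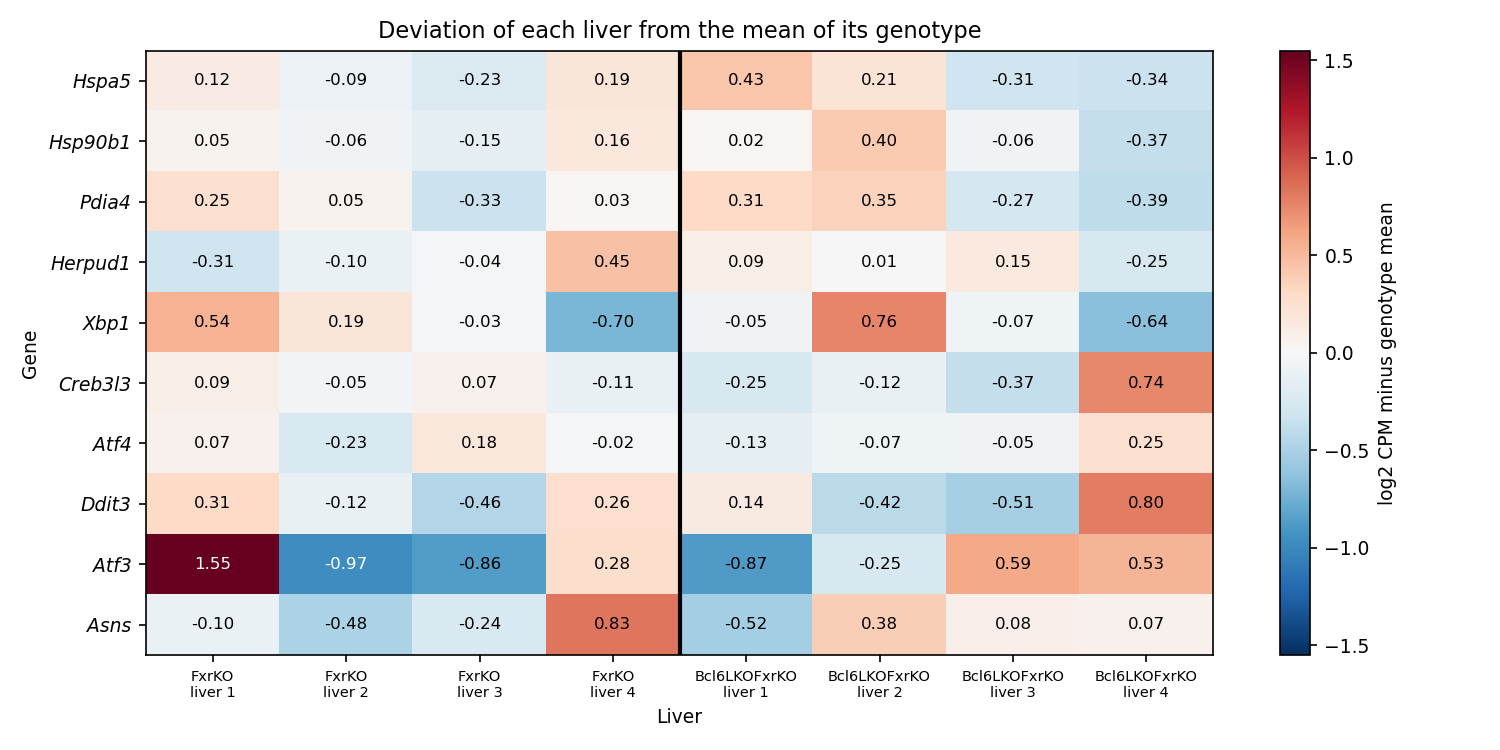
Log2 CPM of each liver (x axis) minus the mean of its genotype, for the 10 genes (y axis), with the value in each cell and a line between the genotypes. Bcl6LKOFxrKO liver 4 is below its genotype for the chaperones *Hspa5* (-0.34), *Hsp90b1* (-0.37) and *Pdia4* (-0.39) and above it for *Ddit3* (0.80) and *Creb3l3* (0.74).

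Per length of transcript, the 10 genes spanned a wide range of levels in RPKM (CPM per kilobase of transcript). In FxrKO livers the means were 347 for *Hsp90b1*, 306 for *Hspa5*, 212 for *Herpud1*, 152 for *Creb3l3*, 123 for *Xbp1* and 98.2 for *Pdia4*. They went down to 60.3 for *Atf4*, 18.9 for *Asns*, 8.02 for *Ddit3* and 1.29 for *Atf3*. Neighbours in this order whose livers overlapped were *Hsp90b1* and *Hspa5*, *Hspa5* and *Herpud1*, *Creb3l3* and *Xbp1*, and *Xbp1* and *Pdia4*, while the other neighbours did not overlap. In Bcl6LKOFxrKO livers *Hspa5* came first at 347 and *Hsp90b1* next at 310, with overlapping livers. *Creb3l3* and *Herpud1* were both at 109, *Xbp1* at 108 and *Pdia4* at 106, and these 4 could not be ordered. *Atf4* followed at 66.3, *Asns* at 14.7 and *Ddit3* at 14.3, the last 2 overlapping, and *Atf3* at 4.77. *Herpud1* thus stood apart from *Creb3l3*, *Xbp1* and *Pdia4* by its mean in FxrKO livers and among them in Bcl6LKOFxrKO livers.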

How the data were processed

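Liver RNA of 4 FxrKO and 4 Bcl6LKOFxrKO males was sequenced in single-end libraries from a stranded kit. By the submitters' processing notes and the study's methods, STAR 2.5.2 was used for alignment to mm10. The authors deposited unnormalized counts, which HOMER 4.10 took over exons and condensed to 1 transcript a gene, whose length the table also holds. Groups are those of the sample labels, which pair no livers, so livers are numbered in the order of the labels. Between 7586241 and 11839503 counts per liver set the precision. No pair of livers of one genotype agreed within sampling noise. Livers of mice with intact *Fxr* were not analysed here.

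Tests used edgeR 4.0.16 in R 4.3.3 (filterByExpr, TMM, robust quasi-likelihood fits, Benjamini-Hochberg adjustment over 12340 genes) on all 8 livers. The standard error is the absolute log2 fold change over the root of the F statistic. CPM and RPKM use the TMM factors. The alternatives were RLE size factors, total counts alone, normalization without the 50 most counted genes, no filter, a filter of 10 or more counts in each liver, DESeq2 1.42.0, limma 3.58.1 (voom with quality weights) and each liver left out, and, added after the data were seen, runs of adjoining title numbers as a block and the largest run alone. The tests were checked on simulated counts with as many genes raised as lowered, which cannot check the normalization for an uneven shift. Promoters were searched in Python 3.11.15. The 10 genes and the gene lists were chosen with earlier results of these data known. Other genes named are, for each list and direction, the 2 (3 for folding enzymes) with the smallest adjusted p and a mean count of at least 20, except where a gene is said to be singled out or named to complete a list or a call. Genes outside the 10 that are named as not called, and single cell type markers, were not picked by this rule.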

Additional observations from a re-analysis of the deposited data

Results flagged for a closer look

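Among the 10 genes, *Creb3l3* stood out within a genotype: Bcl6LKOFxrKO liver 4 was at 394.6 CPM and the other 3 livers at 182.7 to 217.8, a gap of 0.834 of the whole range of the group. The same measure put 7 further values of the other named genes apart from their genotype. Bcl6LKOFxrKO liver 4 was high for *Sil1* (105.7 against 70.63 to 73.73 CPM, a gap of 0.912 of the range) and *Bdh1* (206.5 against 143.2 to 153.9, 0.831), and low for *Ero1lb* (13.26 against 24.51 to 24.98, 0.96) and *Edem3* (8.535 against 15.31 to 16.63, 0.837). Bcl6LKOFxrKO liver 3 was high for *Bcl2l11* (26.98 against 14.93 to 15.41, 0.96). FxrKO liver 2 was low for *Dnajb9* (37.86 against 49.2 to 50.68, 0.884), and FxrKO liver 4 for *Hspe1* (57.81 against 70.61 to 72.12, 0.895). In all, 8 of 94 groups of 4 livers passed this limit, which chance passes in about 1 of 20 for independent groups. These groups share the same livers and are not independent. Bcl6LKOFxrKO liver 4 was the liver in 5 of the 8. Over all tested genes it was the highest of its genotype in 32.7% and the lowest in 34.1%.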

How the results depend on the processing

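Of the 10 genes, *Herpud1* was called lower in 15 of 15 other settings (adjusted p from 3.89e-07 to 0.00254). *Ddit3* and *Atf3* depended on the setting, so the number of the 10 called higher was 2 with RLE size factors, DESeq2 and the 50 most counted genes left out, 1 with total counts alone (*Atf3*), by limma voom with quality weights (*Atf3*) and with at least 10 counts in every liver (*Ddit3*, since *Atf3* was then not tested), 0 with no filter, and 0 to 2 with a liver left out. The number called lower was 2 with total counts alone and by limma voom, by the addition of *Creb3l3*, and 1 to 2 with a liver left out. With a liver left out the adjusted p was 0.0208 to 0.122 for *Ddit3*, 0.00102 to 0.0857 for *Atf3* and 0.000202 to 0.243 for *Creb3l3*. Signs turned for genes near 0 that were never called: *Pdia4* (-0.047 with total counts alone, -0.016 to 0.23 with a liver left out, the lowest without Bcl6LKOFxrKO liver 2), *Atf4* (-0.024 with total counts alone) and *Xbp1* (-0.51 to 0.0115 with a liver left out, the highest without FxrKO liver 1). Total counts alone shift all genes down by 0.159 on the log2 scale and gave 2949 genes called lower in place of 1665. Of the values of the other named genes, 517 kept their direction and call, none turned and 23 lost the call, in *Dnajb9*, *Rpn2*, *Bax*, *Itpr1* and *Hspe1*. Of 300 counts of calls in the other lists, 43 moved by over 1.5 times. The cause of these shifts was not tested. *Ddit3* and *Atf3* had 8 to 221 counts per liver. A planned list of proteins with an endoplasmic reticulum retention signal was not run. No paired analysis was possible because the labels carry no replicate numbers shared by the genotypes: each title has a number of its own. Fits by runs of adjoining title numbers were chosen after seeing the data. Bcl6LKOFxrKO liver 1, alone in its run, adds nothing to the difference between genotypes in these fits. With the runs as a block, 1 of the 10 genes was called higher (*Atf3*) and 1 lower (*Herpud1*), and *Hspa5* (-0.029) and *Pdia4* (-0.059) turned. In the run of 5 livers alone the same 2 genes were called, 1 higher and 1 lower, *Hspa5* (-0.16) and *Pdia4* (-0.18) turned, and 1020 of all tested genes were called lower.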

Other observations

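The 2 most abundant chaperones of the organelle, *Hspa5* and *Hsp90b1*, are known to be raised together, and both promoters hold the stress response element. Neither was called, but their ratio within a liver, in RPKM, was 0.929, 0.862, 0.834 and 0.901 in FxrKO livers and 1.48, 0.971, 0.935 and 1.14 in Bcl6LKOFxrKO livers, with no overlap between genotypes. The ratio of *Herpud1* to *Hspa5*, with elements of the same family in their promoters, was 0.504, 0.676, 0.78 and 0.816 in FxrKO and 0.252, 0.28, 0.44 and 0.341 in Bcl6LKOFxrKO livers. It did not overlap, but neither did *Herpud1* by itself. The ratio of *Ddit3* to *Atf4* overlapped, at 0.0842 to 0.159 and 0.147 to 0.295. These ratios were chosen after the values were seen and have no test, and overlapping transcripts of *Hsp90b1* enter the first. How often ratios of other genes separate the genotypes was not counted.

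Plasma cells carry much *Xbp1* and many chaperones of the organelle. *Jchain*, which they express, rose from 2.55 to 3.44 CPM in FxrKO livers to 6.92 to 11.5 CPM in Bcl6LKOFxrKO livers (log2 fold change 1.57, adjusted p = 0.000137 by edgeR), while *Tnfrsf17*, a defining marker, was at or under 3 counts in every liver and *Derl3* was lower. The summed level of lymphocyte and plasma cell markers, 205 to 277 against 584 to 633 CPM, came mostly from *Sdc1* (192 to 262 against 559 to 609 CPM), which hepatocytes also express.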
